A study of Homo sapiens with 9 samples.

Results

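Histone genes were followed in HT1080 cells, a human fibrosarcoma line, growing on fibrillar collagen while their proteases were inhibited. The genes were taken from the array annotation by symbol: the linker histone genes (H1-) and the replication-dependent core histone genes (H2AC, H2BC, H3C and H4C, older symbols HIST1, HIST2 and HIST3). Counting only probe sets that name a single gene, 51 such genes were measured, of 19775 genes in all. They were 9 H1, 8 H2A, 14 H2B, 8 H3 and 8 H4 genes, 3 pseudogenes (H1-9P, H2AC5P and H4C10P) and the antisense gene H1-10-AS1. Of the 51, 42 belong to the large HIST1 cluster of chromosome 6, 1 to HIST2 and 2 to HIST3. A further 20 probe sets name several histone genes at once and are described separately, because their signal cannot be assigned to one paralog.

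Each of 3 groups had 3 one-colour Affymetrix arrays, which the design text calls biological replicates. Untreated cells, titled as vehicle, stood beside cells given the protease inhibitor mix for 4 h (PI 4 h) and for 24 h (PI 24 h). The mix held GM6001 at 100 µM, which inhibits metalloproteinases, with E64 at 250 µM, pepstatin A at 50 µM, and aprotinin and leupeptin at 2 µM each, which inhibit cysteine, aspartic and serine proteases. All cells had been seeded in medium with 10% serum on collagen polymerized at 1.7 mg/ml and had adhered for 24 h before treatment. The titles name protease inhibitors, whereas 1 label calls the mix proteinase kinase inhibitors. Neither the vehicle nor the time at which untreated cells were harvested is stated in the labels, so time in culture and inhibitor exposure cannot be told apart.

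Nucleosomes wrap DNA around an octamer of H2A, H2B, H3 and H4, and H1 binds the linker between them. Most of these proteins come from many near-identical genes that are transcribed in S phase, when the genome is copied. NPAT and CASP8AP2 (FLASH) act at the clustered genes to drive that transcription. Their messages end in a stem-loop bound by SLBP instead of a poly(A) tail, and are destroyed when DNA synthesis stops. Some of the genes can also give polyadenylated transcripts, which are known to gain weight in cells that leave the cycle or differentiate. Linker histone H1-10 is different, being made outside S phase from a polyadenylated message. The labels cite the standard Affymetrix preparation of biotinylated cRNA, which starts from the poly(A) tail, so the share of each signal that came from tailed and from stem-loop transcripts was not tested.

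Stretches just upstream of 5 histone genes are shown because these genes carry the results below: H2AC18 (1 of the 2 genes named by the probe sets that rose), H2BC12, H1-2 and H2BC5 (bright single genes that lay higher at 24 h) and H2AC25 (similar in all groups). Each is the 150 bases before the annotated start, read 5′ to 3′ on the gene's own strand, from RefSeq on GRCh38.p14. Capitals mark the CCAAT box, the TATA box (spelled TATAAA), the octamer ATTTGCAT and the H1 box (spelled AAACACA), each searched on both strands. No motif contains another, though neighbouring matches may share end bases.
H2AC18 (chr1:149842751-149842900, minus strand): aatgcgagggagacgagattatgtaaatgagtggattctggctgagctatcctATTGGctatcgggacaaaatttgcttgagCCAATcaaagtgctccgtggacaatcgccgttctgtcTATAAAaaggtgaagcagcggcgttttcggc
H2BC12 (chr6:27146859-27147008, minus strand): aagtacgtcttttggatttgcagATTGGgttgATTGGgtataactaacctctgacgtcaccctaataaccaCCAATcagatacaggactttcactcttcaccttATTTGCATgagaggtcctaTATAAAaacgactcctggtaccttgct
H1-2 (chr6:26056471-26056620, minus strand): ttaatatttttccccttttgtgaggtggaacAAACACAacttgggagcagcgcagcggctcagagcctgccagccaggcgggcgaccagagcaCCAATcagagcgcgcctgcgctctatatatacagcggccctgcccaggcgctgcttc
H2BC5 (chr6:26157971-26158120, plus strand): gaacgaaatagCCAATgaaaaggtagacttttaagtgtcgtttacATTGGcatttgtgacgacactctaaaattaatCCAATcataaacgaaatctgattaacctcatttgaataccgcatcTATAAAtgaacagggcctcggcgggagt
H2AC25 (chr1:228457874-228458023, minus strand): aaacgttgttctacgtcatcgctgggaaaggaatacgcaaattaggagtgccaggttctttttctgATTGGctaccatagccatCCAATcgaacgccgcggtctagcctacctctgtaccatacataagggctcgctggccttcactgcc

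H2AC19 has the same upstream sequence as H2AC18: over the 299 bases that could be compared, 299 were identical. RefSeq promoters were matched for 44 of the 51 genes and for H2AC18 and H2AC19, and motifs were searched in the 250 bases before the start. The CCAAT box was found in 40 of these 46 promoters, against 33.0% of 27305 promoters of all genes. By class it was in 8 of 9 H1, 10 of 10 H2A, 13 of 13 H2B and 7 of 7 H3 promoters, but in 2 of 7 H4 promoters. The TATA box was found in 31 of 46, against 11.1%. The octamer was found in 6 of 10 H2A and 10 of 13 H2B promoters and in 0 of the H1, H3 and H4 promoters, against 1.66% of all. The H1 box was found in 7 of 9 H1 promoters and in 0 of the others, against 4.95% of all. Within the stretches shown, the octamer is in H2BC12 and not in H2BC5.

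The deposited values are linear intensities, scaled so that the mean after trimming 2% at each end is 100 on every array. A common mean removes any change in total messenger RNA. Array quality moved with treatment: the 5′ to 3′ signal ratio of ACTB, a sign of RNA integrity and of labelling, averaged 0.697 ± 0.038 at 24 h, against 0.893 ± 0.034 in untreated cells (SD, n = 3 each, exact two-sided permutation p = 0.1, the smallest that 3 against 3 arrays can give). For GAPDH the same ratio lay the other way, at 1.08 ± 0.018 at 24 h and 1.05 ± 0.00077 in untreated cells (exact p = 0.1). Poly-A spike transcripts, added during preparation, averaged a log2 intensity of 10.74 at 24 h, against 9.45 in untreated cells (exact p = 0.1). Replicate 2 at 4 h stood apart from the other two arrays of its group on the first principal component (-13.4, against 8.63 and 15.5). The part of these array differences in the results below was not tested. Of 9 mesenchymal markers, 7 averaged over 100 in each group, and 0 of 7 epithelial markers averaged over 16 in any group. The summed intensities of 6 endothelial markers ran from 49.8 to 62.4 on untreated arrays, from 80.1 to 128 at 4 h and from 88.3 to 134 at 24 h. At 24 h PECAM1 and CLDN5 averaged over 16, in untreated cells PECAM1 alone, and their part in the results was not tested. The summed intensities of 5 leukocyte markers ran from 23.1 to 64.2 on untreated arrays, from 21.9 to 43.7 at 4 h and from 24.2 to 53.6 at 24 h.

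Few histone genes gave a strong signal. Of the 51, 28 averaged under 16, the constant added before taking logs, 14 lay between 16 and 100, and 9 averaged over 100: H1-2, H1-10, H2AC6, H2AC25, H2BC5, H2BC6, H2BC9, H2BC12 and H2BC12L. The 8 H3 and 8 H4 genes each averaged under 100. No detection calls were used here, so values under 16 cannot be told from background. Several of the 9 read partly through cross-hybridising probes: H2BC5, H2BC6, H2BC9 and H2BC12L are on probe sets whose suffix (_x_) marks probes that also match other sequences, and H1-10 and H2AC6 are on sets shared among transcripts (_s_).

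The only histone signals with an adjusted p under 0.05 were on probe sets shared by H2AC18 and H2AC19, at 24 h. Of 3 probe sets that name both H2AC18 and H2AC19, duplicate H2A genes of the HIST2 cluster on chromosome 1, the 2 brighter ones rose after 24 h of inhibition and the dim one did not pass. On the brightest of the 3 (probe set A) the intensities were 1226, 1140.3 and 1272 on untreated arrays, 1579.7, 1336 and 1657 at 4 h, and 3008, 3115 and 2495 at 24 h. Every 24 h array was above every other array, and every 4 h array was above every untreated one. The log2 difference between 24 h and untreated cells was 1.23 ± 0.14 (SE, 2.34-fold, adjusted p = 0.0341 in limma over 54613 probe sets). In that fit 0.0165% of probe sets were called higher and 0.0366% lower.

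On the next (probe set B) the intensities were 488, 475 and 472 on untreated arrays, 705, 559 and 633 at 4 h, and 1211, 1144 and 982 at 24 h. The 3 groups again did not overlap, and the log2 difference at 24 h was 1.18 ± 0.14 (SE, 2.27-fold, adjusted p = 0.0341 in limma). Both sets name the same genes, so they are not independent measurements. Set A has the suffix _s_ and set B the suffix _x_, which marks probes that also match other sequences. How far other sequences add to the signal of B was not tested. The third (probe set C) was dim: 49.0, 27.7 and 40.1 at 24 h, against 22.6, 4.8 and 19.7 on untreated arrays. It pointed the same way without passing (log2 difference 0.82 ± 0.27 SE, adjusted p = 0.212 in limma). Both calls were lost without any single array other than replicate 2 at 4 h (adjusted p up to 0.194), with the log2 difference of the brighter set between 1.17 and 1.33. They were also lost with a constant of 1 (adjusted p = 0.12), which gives dim probe sets more weight, or with only the compared groups in the model (adjusted p = 0.0583).

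**Figure D1:**
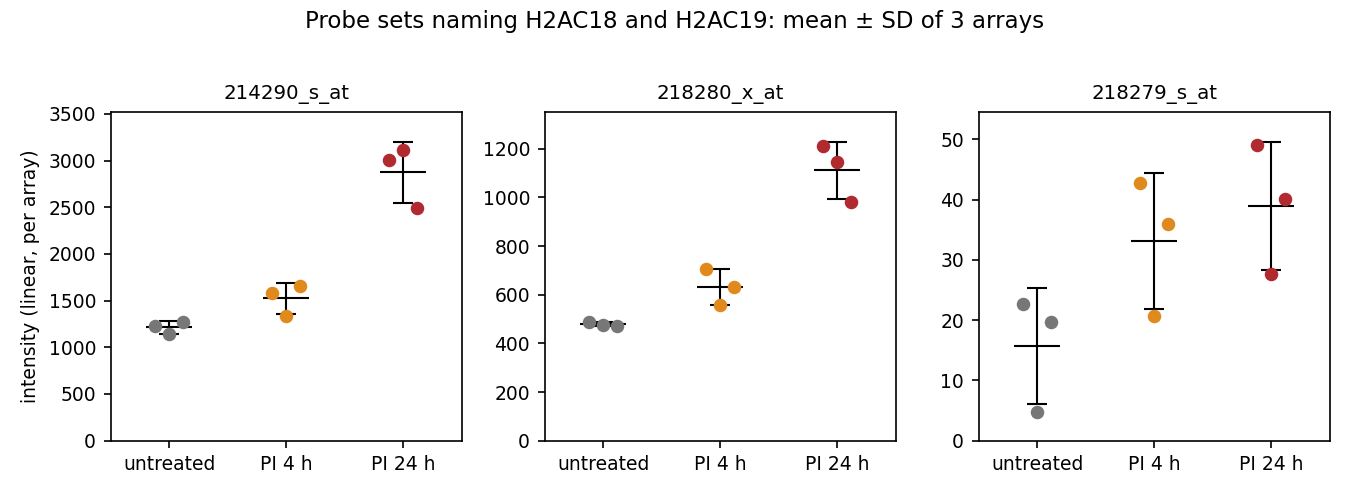
Linear intensities of probe sets A (left), B (middle) and C (right), which name H2AC18 and H2AC19, with a point for each array and a bar for the mean ± SD of 3 arrays in untreated, PI 4 h and PI 24 h cells. On A the 24 h arrays lie between 2495 and 3115 and the untreated arrays between 1140.3 and 1272, and C is dim in all groups.

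The values of these probe sets put most of the difference after 4 h. At 4 h the log2 difference from untreated cells was 0.32 on A and 0.38 on B (adjusted p = 0.442 and 0.326 in limma). At that time 0.0128% of probe sets were called higher. Between 24 h and 4 h it was 0.91 and 0.80 (adjusted p = 0.111 and 0.12), with no overlap between arrays on either set. That direct test did not pass, in a fit where 0.00549% of probe sets were called higher and 0.0201% lower. With a constant of 64 it passed on A and B (adjusted p = 0.0136 and 0.0163), and A also passed when tested together with the table of genes (adjusted p = 0.0452). Of the 20 shared probe sets, 2 passed at 24 h against untreated cells (A and B), and 0 passed in the other comparisons. At an unadjusted p under 0.05 in limma, 7 were higher at 24 h and 3 at 4 h against untreated cells. Between 24 h and 4 h, 2 were higher at that p. The share of all probe sets at that p was not counted, but over genes it was 8.17%, 6.93% and 5.2% in this order. Several of the 20 name the same genes, so they are not independent measurements. A larger share of cells making these transcripts and more transcript per cell cannot be told apart in RNA from whole cultures.

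The H2A genes with a strong signal of their own did not pass and had values near 0. H2AC25, an H2A gene of the HIST3 cluster, had 1083, 989.7 and 942 at 24 h, against 932, 1103 and 1042 in untreated cells. Its groups overlapped, and its log2 difference was -0.03 (95% interval -0.30 to 0.25, adjusted p = 0.943 in limma). H2AC6, a HIST1 gene, had 522, 447 and 439 at 24 h, against 458, 424 and 488 in untreated cells (log2 difference 0.04, interval -0.27 to 0.34, adjusted p = 0.934). The difference between these genes and the H2AC18/H2AC19 probe sets was not itself tested. H2BC21, the only H2B gene measured from the same HIST2 cluster, had 48.3, 47.0 and 67.5 at 24 h, against 39.3, 61.7 and 80.9 in untreated cells. Its groups overlapped (log2 difference -0.10, adjusted p = 0.879).

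The remaining H2A genes were dim. H2AC8 had 14.9, 28 and 21.4 at 24 h and 18, 10.0 and 16 at 4 h, against 5.2, 1.6 and 8.8 in untreated cells. Its treated arrays did not overlap the untreated ones at either time, but all lay near background (log2 difference 0.82 after 24 h, adjusted p = 0.0804, and 0.54 after 4 h, adjusted p = 0.274, in limma). H2AC4 ran the other way, with 15.3, 14.2 and 7.8 at 24 h, against 22.3, 20.9 and 20.7 in untreated cells (log2 difference -0.40, adjusted p = 0.17). H2AC14 was 67.3, 74.3 and 23.0 at 24 h, against 60.7, 58.6 and 50.8 in untreated cells, with a single low array at 24 h. H2AC17 was under 16 on every array, with a highest value of 12.5.

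Among genes read by their own probe sets, no histone gene passed the threshold of 0.05 at 24 h in limma, where 0.217% of all genes were called higher and 0.248% lower. At an unadjusted p under 0.05, 8 of 51 were higher (H1-2, H2AC8, H2BC5, H2BC6, H2BC12, H2BC12L, H2BC15 and H4C8), beside 8.17% of all genes. At that level 2 were lower (H2AC4 and H3C1), beside 7.62%. With a constant of 64, which gives dim genes less weight, 3 passed (H2BC12, H1-2 and H2BC5), among 826 of all genes. Arrays of the groups did not overlap for 11 higher genes (12.8% of all genes) and for 3 lower genes (12.2% of all genes). Of the 51 genes 29 lay above 0 (51.6% of all genes) and 22 below (48.4%). The median log2 difference was 0.05 over the 51 genes and 0.01 over all genes. It was 0.32 over the 9 genes averaging over 100, 7 of which lay above 0, beside 0.01 over all 7053 genes averaging over 100. Over the 28 dim genes it was -0.02.

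Of the 14 H2B genes, the largest class, 11 lay above 0 at 24 h (51.6% of all genes), with a median log2 difference of 0.24, and 5 were higher at an unadjusted p under 0.05 (8.17% of all genes). Of the 8 H4 genes 7 lay above 0, with a median of 0.19, and 1 was higher at that p. In the other classes 5 of 8 H3 genes lay above 0 (median 0.14), 3 of 8 H2A genes (median -0.08) and 2 of 9 H1 genes (median -0.06). Paralogs may share signal, so the genes of a class are not independent measurements. H2BC12 encodes an H2B of the HIST1 cluster and is known for polyadenylated transcripts. It had 3431, 3635 and 3519 on untreated arrays, 3881, 3334 and 3667 at 4 h, and 4821, 4737.5 and 4569 at 24 h. Every 24 h array stood above all 6 others, whereas the 4 h and untreated arrays overlapped. The difference at 24 h was 0.41 ± 0.11 on the log2 scale (SE, 1.33-fold, adjusted p = 0.114 in limma).

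H2BC5, another H2B gene with known polyadenylated transcripts, had 504, 545 and 524 on untreated arrays, 620.2, 477 and 576 at 4 h, and 698, 778 and 700.1 at 24 h. The 24 h arrays did not overlap either of the other groups (log2 difference 0.46 ± 0.13 SE, adjusted p = 0.129). Its second probe set had 402, 261.5 and 379.7 at 24 h, against 190.0, 197 and 280.1 in untreated cells, with overlap (log2 difference 0.61, adjusted p = 0.208). H2BC6 averaged 317 ± 14 at 24 h, against 251 ± 21.7 in untreated cells (SD, n = 3 each, log2 difference 0.32, adjusted p = 0.193 in limma). H2BC12L, an H2B-like gene outside the main clusters, averaged 1362 ± 183 at 24 h and 1039 ± 45.6 in untreated cells (adjusted p = 0.307).

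H2BC9 was the only bright H2B gene that lay lower at 4 h than in untreated cells, with 158, 142 and 122 at 4 h, against 149.8, 149 and 164.5 in untreated cells, which overlapped. At 24 h it had 177.5, 187 and 211, above all other arrays (log2 difference 0.29, adjusted p = 0.317). H2BC15 was dim, with 9.9, 14.8 and 18.3 at 24 h, against 2.1, 2.3 and 6.9 in untreated cells (log2 difference 0.62, adjusted p = 0.155). H2BC4 had 29.4, 22.7 and 29.2 at 24 h, against 19.6, 24.9 and 17.5 in untreated cells (log2 difference 0.23, adjusted p = 0.422). Of 3 probe sets shared by H2BC4, H2BC6, H2BC7, H2BC8 and H2BC10, the first had 109.6, 115 and 113 at 24 h, against 51.8, 58.4 and 66.6 in untreated cells, with no overlap (log2 difference 0.78, adjusted p = 0.144). The second, dimmer, had 48.0, 40.5 and 44.4 at 24 h, against 27.7, 23.9 and 24.1 in untreated cells, also with no overlap (log2 difference 0.55, adjusted p = 0.171). On the brightest of the 3 the groups overlapped (log2 difference 0.13, adjusted p = 0.773).

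**Figure D2:**
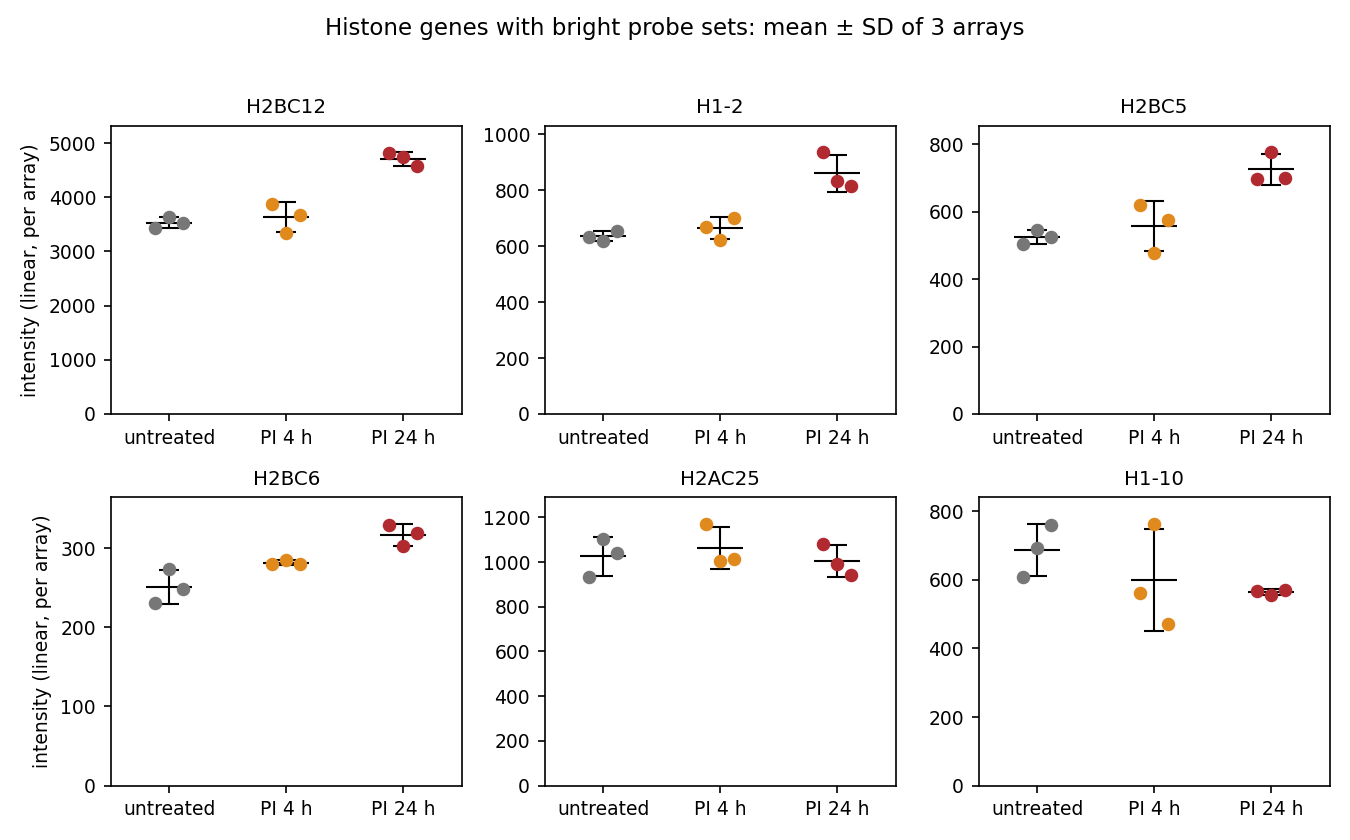
Linear intensities of 6 histone genes by array (points), with the mean ± SD of 3 arrays in untreated, PI 4 h and PI 24 h cells. H2BC12, H1-2, H2BC5 and H2BC6 have their 3 highest values at 24 h, whereas the groups overlap for H2AC25 and replicate 2 at 4 h is the highest array for H1-10.

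Among the linker histones, H1-2 was the only gene above 0 at 24 h with a strong signal. H1-2, a somatic linker histone with both stem-loop and polyadenylated messages, had 634, 620.4 and 655 on untreated arrays, 669.6, 623 and 701 at 4 h, and 938, 832 and 815.5 at 24 h. All 24 h arrays lay above the rest (log2 difference 0.42 ± 0.11 SE, 1.34-fold, adjusted p = 0.114 in limma). H1-10, the replication-independent linker histone, had 608, 693 and 761 on untreated arrays, 562, 762 and 472 at 4 h, and 567, 556 and 571 at 24 h. Its 24 h arrays were all below the untreated ones, by a log2 difference of -0.27 (adjusted p = 0.495), and its highest 4 h value was replicate 2, the array that stood apart. H1-2 and H1-10 thus lay on opposite sides of 0, and whether they differ from each other was not tested.

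The other somatic linker genes were near background. H1-1 stayed between 1.0 and 5.8 on all 9 arrays. H1-5 was under 5 on every array except untreated replicate 1, at 20.7. H1-3 averaged 15 ± 8.48 at 24 h and 20.3 ± 1.92 in untreated cells, and H1-4 averaged 19.1 ± 12.0 at 24 h and 14.7 ± 8.76 in untreated cells (SD, n = 3 each). The germline genes H1-6, H1-7 and H1-8 averaged under 16, with log2 differences at 24 h of -0.04 to -0.06.

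H3 genes were dim throughout. H3C8 had 3.2, 48.1 and 5.1 at 24 h, against 2.5, 1.8 and 1.7 in untreated cells, so its mean rests on a single array. H3C1 had 0.7, 3.2 and 0.9 at 24 h, against 5.0, 10.6 and 6.7 in untreated cells (log2 difference -0.41, adjusted p = 0.16 in limma), all under 16. H3C3 had 16.3, 21.7 and 18.5 at 24 h, against 12.5, 6.5 and 5.0 in untreated cells, without overlap (log2 difference 0.55, adjusted p = 0.435). H3C2 (log2 difference 0.29) and H3-4, a testis H3 gene (0.20), overlapped between 24 h and untreated cells, and leaving out 1 array moved H3C2 between 0.12 and 0.56.

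For H4 the only bright signal was a shared probe set that names 14 H4 genes. It had 9407, 9139.8 and 8483 on untreated arrays, 10323, 9607 and 12348 at 4 h, and 10484, 12049 and 11066.5 at 24 h. Both treated groups lay above the untreated arrays and overlapped each other, with a log2 difference of 0.31 ± 0.14 at 24 h (SE, adjusted p = 0.357 in limma). Under quantile normalization that difference was 0.07. H4C8 had 78.8, 75.6 and 40.9 at 24 h, against 34.9, 32.4 and 28.9 in untreated cells (log2 difference 0.72 ± 0.19 SE, adjusted p = 0.115). Its other probe set had 53.1, 63.1 and 55.1 at 24 h, against 35.9, 28.4 and 39.5 in untreated cells, again without overlap (log2 difference 0.53, adjusted p = 0.143). H4C11 (log2 difference 0.37), H4C13 (0.38) and H4C7 (0.01) overlapped between the groups.

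The 3 pseudogenes and H1-10-AS1 (an antisense transcript of H1-10) averaged under 16. Their log2 differences at 24 h ran from -0.44 for H2AC5P to 0.17 for H4C10P. The remaining H2A, H2B, H3 and H4 genes averaged at most 25.2 (H4C5), and their log2 differences at 24 h ran from -0.17 for H4C5 to 0.27 for H4C9, none of them past the threshold.

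**Figure D3:**
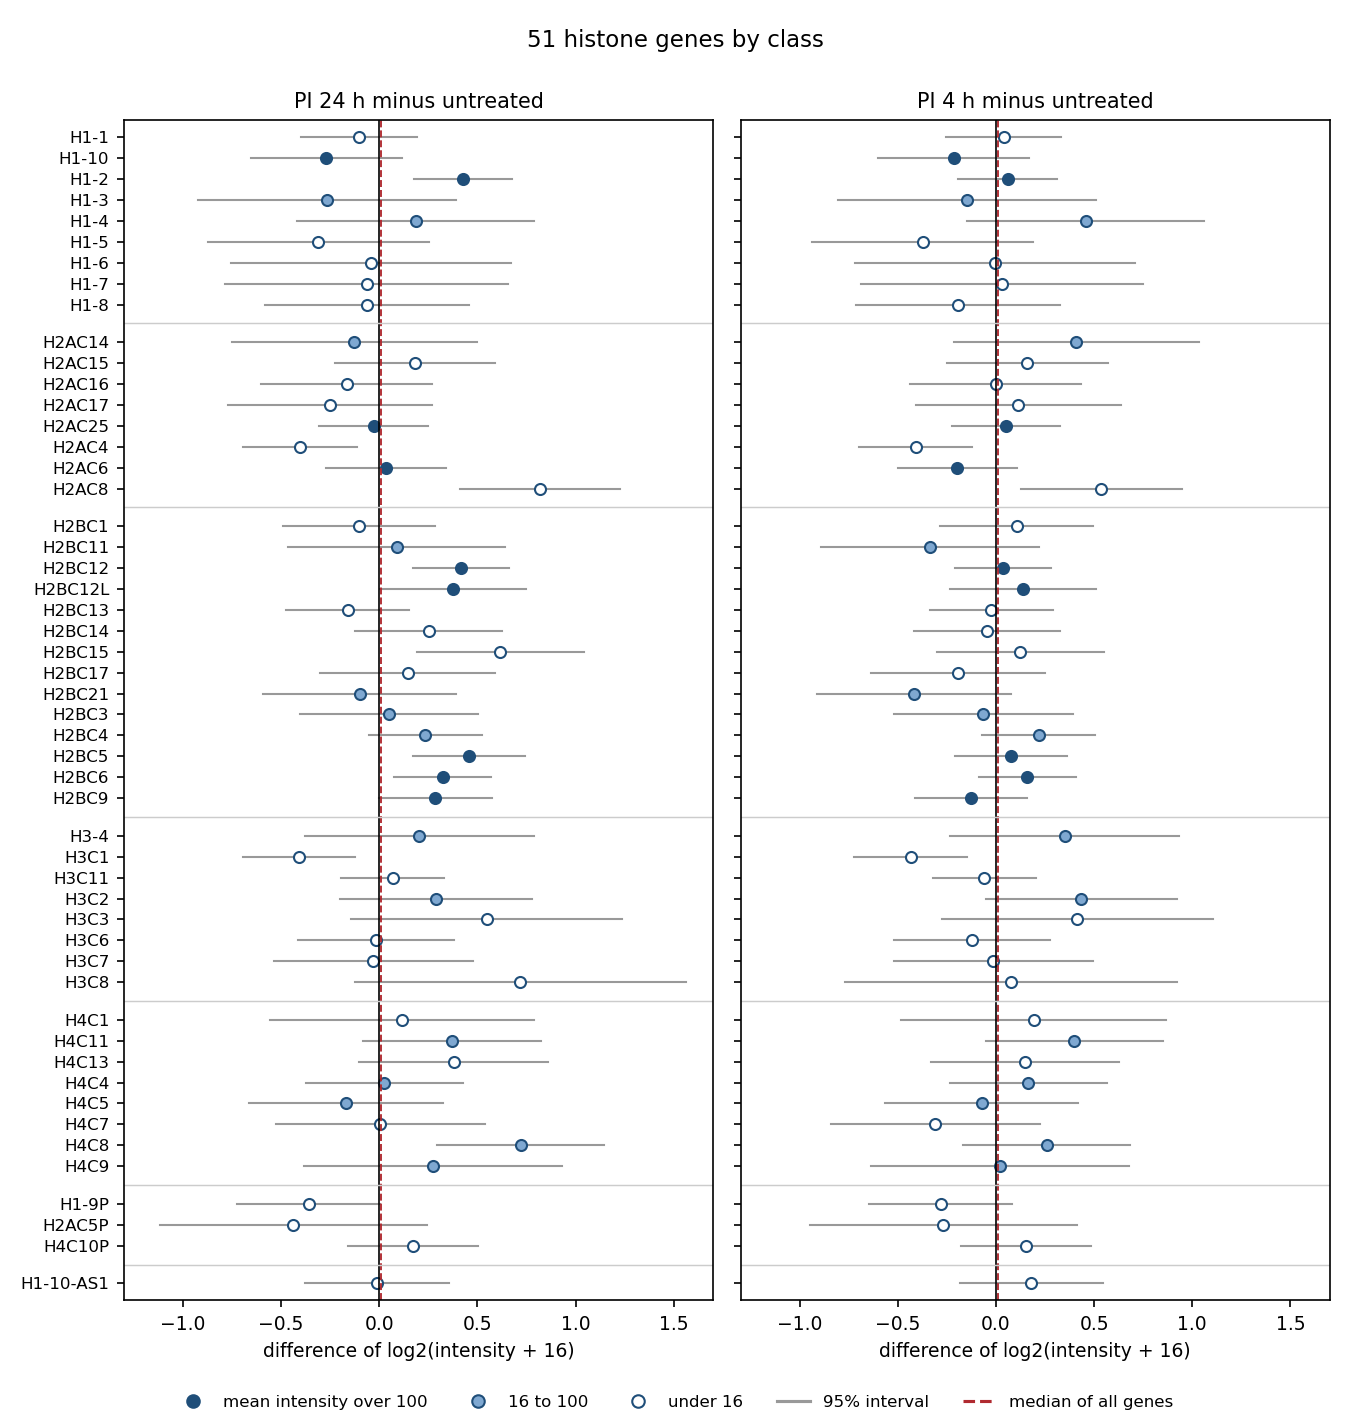
Log2 differences of the 51 histone genes by class (points) with 95% intervals, for PI 24 h minus untreated and PI 4 h minus untreated, where the fill gives the gene's mean intensity and the dashed line the median of all genes. The bright genes of H2B and H1-2 lie to the right at 24 h, H1-10 to the left, and no gene passed the threshold.

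After 4 h, no histone gene passed in limma, where 0.233% of all genes were called higher and 0.0152% lower. At an unadjusted p under 0.05, H2AC8 was higher and H2AC4 and H3C1 were lower, all dim, beside 6.93% of all genes higher and 5.43% lower. The groups did not overlap for 5 higher genes (9.37% of all genes) and 2 lower genes (8.14%). Of the 9 genes averaging over 100, each on its brightest probe set, only H2BC6 had all 4 h arrays above the untreated ones (log2 difference 0.16, adjusted p = 0.613 in limma). Among the others with values above 0, H2BC12 was at 0.04, H2AC25 at 0.05, H1-2 at 0.06, H2BC5 at 0.08 and H2BC12L at 0.14. Below 0 were H2BC9 at -0.13, H2AC6 at -0.20 and H1-10 at -0.22, and H1-10 ran from -0.40 to -0.06 when 1 array was left out. The second probe set of H2BC5 had 328.1, 291.1 and 292.7 at 4 h, against 190, 197.1 and 280.1 in untreated cells. These did not overlap, without passing (log2 difference 0.44, adjusted p = 0.445 in limma). The shared H2AC18/H2AC19 sets A and B and the shared H4 set, described above, also had every 4 h array above every untreated array without passing. Of the dimmer genes H2BC21 was at -0.42 and H1-4 at 0.46, each with overlap, and leaving out 1 array moved them between -0.63 and -0.23 and between 0.21 and 0.64. Of the 51 genes 28 lay above 0 (52.2% of all genes) and 23 below (47.8%), and the median was 0.04, beside 0.01 over all genes.

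Between 24 h and 4 h, 12 of the 14 H2B genes lay above 0 (49.2% of all genes), with a median of 0.31, beside a median of 0.00 over all genes. These H2B paralogs may share signal and are not independent measurements. None of the 51 genes passed in limma (0.0253% of all genes higher, 0.116% lower). At an unadjusted p under 0.05, 6 were higher (H1-2, H2BC5, H2BC9, H2BC12, H2BC15 and H4C8), beside 5.2% of all genes, and 0 were lower, beside 6.12%. The arrays did not overlap for 7 higher genes, beside 7.35% of all genes, and for 1 lower gene, the pseudogene H1-9P, beside 7.85%. Of the 51 genes 29 lay above 0 (49.2% of all genes) and 22 below (50.8%). The log2 differences were 0.38 for H2BC12, 0.37 for H1-2, 0.38 for H2BC5 and 0.41 for H2BC9 (adjusted p = 0.229, 0.255, 0.307 and 0.262). The comparisons at 24 h share the 24 h arrays, so these values and those against untreated cells are not independent.

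The factors that act on histone genes and their messages had values on both sides of 0 at 24 h. Of 27 measured genes of histone transcription and stem-loop processing, 0 passed in either direction in limma (0.217% of all genes higher, 0.248% lower). At an unadjusted p under 0.05, 2 were higher and 4 lower, beside 8.17% and 7.62% of all genes. The median log2 difference over the 27 genes was -0.03. SLBP, which binds the stem-loop, had 857, 879.8 and 870.2 at 24 h, all below the untreated arrays at 1157.5, 1099.9 and 1161.5 (log2 difference -0.38, adjusted p = 0.161). NPAT, the transcriptional activator of the clusters, had 119.6, 106 and 105 on untreated arrays, 184, 159 and 228 at 4 h, and 138, 156 and 125 at 24 h. Both treated groups lay above the untreated one (log2 difference 0.70 after 4 h with adjusted p = 0.116, and 0.30 after 24 h with adjusted p = 0.362). CASP8AP2 averaged 39.4 ± 7.44 at 24 h and 40.8 ± 9.21 in untreated cells (SD, n = 3 each). LSM10, a subunit of the U7 particle that cuts histone messages, averaged 697 ± 35.1 at 24 h and 558 ± 10.2 in untreated cells (log2 difference 0.31, adjusted p = 0.191 in limma).

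Of 39 S phase and replication genes, 25 lay below 0 at 24 h, and of 25 genes of G2 and mitosis 19 did, beside 48.4% of all genes. Of the S phase genes 0 passed in limma, 2 were higher and 7 lower at an unadjusted p under 0.05 (8.17% and 7.62% of all genes), and the median was -0.04. UHRF1, which maintains DNA methylation at replication, had 372, 339 and 405 at 24 h, against 572, 653.5 and 659 in untreated cells, without overlap (log2 difference -0.73, adjusted p = 0.0752). GINS3, of the replicative helicase, averaged 145.5 ± 4.00 at 24 h and 208 ± 15.6 in untreated cells (adjusted p = 0.129). Of the genes of G2 and mitosis, 0 passed, 1 was higher and 7 lower at an unadjusted p under 0.05, and the median was -0.10. CDK1, the mitotic kinase, had 575, 849 and 793 at 24 h, against 1196, 996 and 1150.2 in untreated cells (log2 difference -0.60, adjusted p = 0.121), whereas TTK, a spindle checkpoint kinase, averaged 582 ± 40.6 at 24 h and 408 ± 37.9 in untreated cells (0.50, adjusted p = 0.146).

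Of 25 histone chaperone genes, 0 passed in limma, 0 were higher and 4 lower at an unadjusted p under 0.05 (8.17% and 7.62% of all genes), and 19 lay below 0 at 24 h (48.4% of all genes), with a median of -0.16. NAP1L4, an H2A-H2B chaperone, averaged 322 ± 36.7 at 24 h and 462 ± 12.0 in untreated cells (log2 difference -0.50, adjusted p = 0.102). TONSL, which reads newly replicated chromatin, was dim, averaging 12.3 ± 9.81 at 24 h and 38.1 ± 15.4 in untreated cells, without overlap (log2 difference -0.96, adjusted p = 0.232). Of 8 measured histone variant genes, 0 passed, 0 were higher and 2 lower at an unadjusted p under 0.05. H2AX, the H2A variant of the DNA damage response, had 1615, 1822 and 1760.5 on untreated arrays, 1254.5, 1867 and 949.9 at 4 h, and 1002.5, 1103 and 1089.6 at 24 h. Its 24 h arrays were all below the untreated ones (log2 difference -0.69, adjusted p = 0.15), and CENPA, the centromeric H3, averaged 160.4 ± 18.2 at 24 h and 237 ± 14.5 in untreated cells (adjusted p = 0.207).

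In the cell cycle exit list, 1 of 18 measured genes passed at 24 h, beside 0.217% of all genes called higher and 0.248% lower. This was GADD45A, a growth arrest and DNA damage gene, which fell. It had 325.8, 330.2 and 331 at 24 h, against 601, 609.7 and 612 in untreated cells, without overlap (log2 difference -0.85 ± 0.13 SE, adjusted p = 0.0333 in limma). Its call was lost without any of the 6 arrays compared (adjusted p up to 0.171). At an unadjusted p under 0.05, 3 genes of that list were higher and 3 lower, beside 8.17% and 7.62% of all genes. The median of the list was -0.12. TOB1, an antiproliferative gene, averaged 280.2 ± 23.8 at 24 h and 199 ± 21 in untreated cells (log2 difference 0.47, adjusted p = 0.169). At 4 h against untreated cells, and at 24 h against 4 h, 0 genes of these 6 lists passed in limma. At an unadjusted p under 0.05 at 4 h, beside 6.93% of all genes higher and 5.43% lower, 2 of 27 genes of histone transcription and processing were higher and 0 lower, and 1 of 39 S phase genes was higher and 2 lower. Of 25 genes of G2 and mitosis 2 were higher and 0 lower, of 25 chaperone genes 0 and 2, of 8 variant genes 0 and 0, and of 18 cell cycle exit genes 1 and 2. At 24 h against 4 h, beside 5.2% of all genes higher and 6.12% lower, 1 of 39 S phase genes was higher and 6 lower, and 0 of 25 genes of G2 and mitosis were higher and 5 lower. Of the 27 genes of histone transcription and processing 0 were higher and 2 lower, of the 25 chaperone genes 0 and 1, of the 8 variant genes 0 and 0, and of the 18 cell cycle exit genes 2 and 2.

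**Figure D4:**
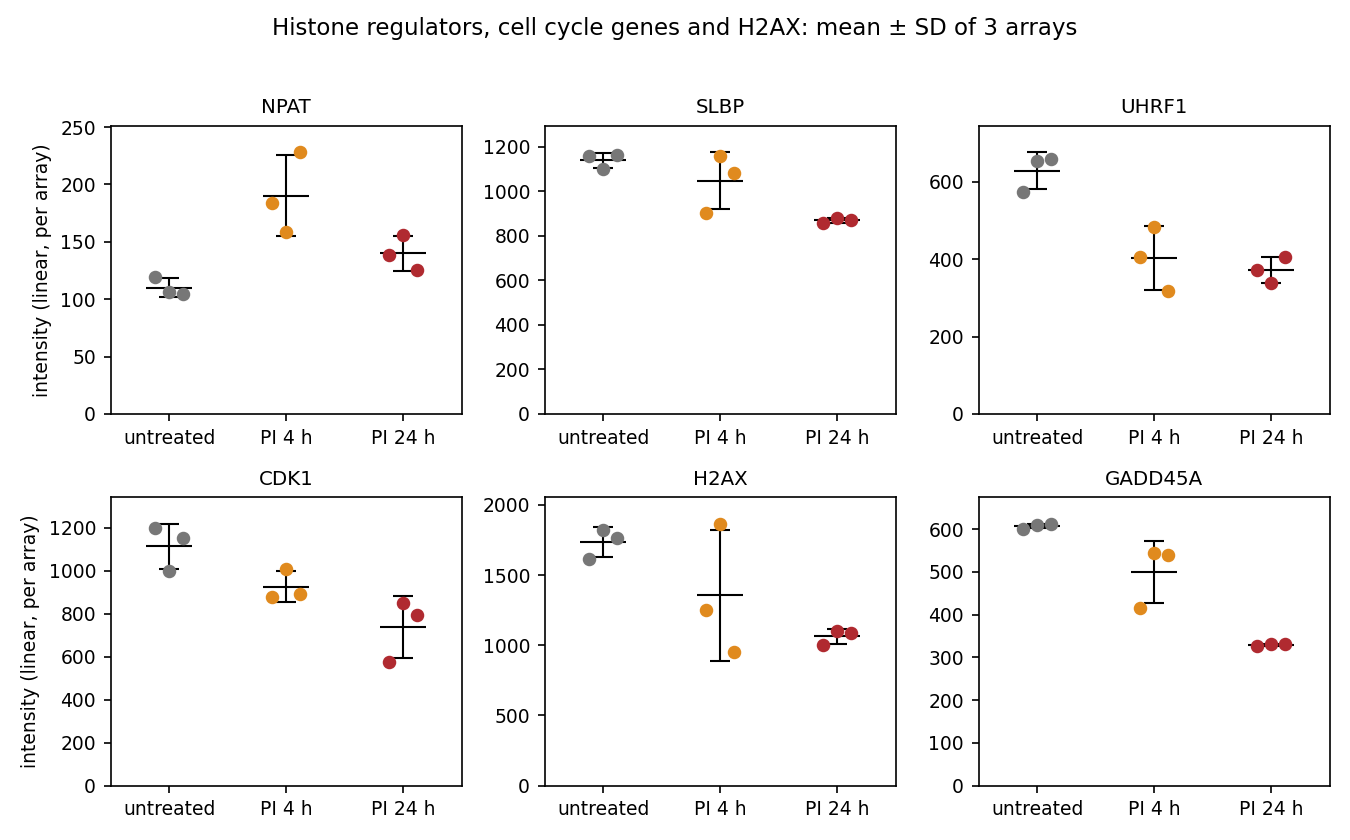
Linear intensities by array (points) with the mean ± SD of 3 arrays in untreated, PI 4 h and PI 24 h cells for NPAT, SLBP, UHRF1, CDK1, H2AX and GADD45A. SLBP, UHRF1, CDK1, H2AX and GADD45A have every 24 h array below every untreated array, and NPAT has its highest values at 4 h.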

How the data were processed

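RNA from 9 cultures, 3 per group, was hybridised to arrays of 54675 probe sets. The authors deposited linear intensities, 1 per probe set and array; per the submitters' processing notes R 2.9.2 and RMA were used, with no role given. The 2% trimmed mean of each array was 100, and the median intensity ran from 14.2 to 18.2. The labels do not state which software summarised the probe sets, and the number of arrays limits the precision.

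Values were taken as log2(intensity + 16), so differences of dim genes are understated. After leaving out 62 control probe sets, each gene was read by its single-gene probe set with the highest mean log2 value. limma 3.58.1 in R 4.3.3 (lmFit, eBayes) was fitted over all 9 arrays and 19775 genes, and separately over 54613 probe sets for those naming several histone genes. Benjamini-Hochberg adjustment covered each fit, with a threshold of 0.05, and every adjusted p is from limma. The method was tested on simulated data with independent noise for each gene, which did not carry the array quality differences described above. The histone genes and the 10 gene lists were chosen with earlier results of these data known. Genes named from each class were the 3 with the smallest p at each time, the 2 brightest and the somatic linker genes; for other lists the 2 with the smallest p, those past the threshold, NPAT, SLBP and CASP8AP2. H2BC9, H1-6 to H1-8, PECAM1, CLDN5, the H2AC18 and H2AC19 sets and the other shared probe sets were named after their values were seen. Pseudocounts of 1 and 64, quantile normalization, median centring, a filter at the 40th percentile, the mean over probe sets, the compared groups only, a replicate block and leaving out each array were tried.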

Additional observations from a re-analysis of the deposited data

How the results depend on the processing

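With no histone gene past the threshold among single-gene probe sets at 24 h against untreated cells, 3 passed with a pseudocount of 64 (H2BC12, H1-2 and H2BC5, limma adjusted p = 0.0156, 0.019 and 0.0326, among 826 genes called of all) and 2 with dim genes left out (H2BC12 and H1-2, adjusted p = 0.0475 and 0.0483, among 577 called). That filter kept 23 of the 51 genes and gave a median log2 difference of 0.204. UHRF1, NAP1L4 and, at 4 h, NPAT also passed under both. At 24 h SLBP, LSM10, GINS3 and CDK1 passed with a pseudocount of 64 (adjusted p = 0.0422, 0.0384, 0.0461 and 0.0416), H2AX and UHRF1 with the compared groups only (adjusted p = 0.0482 and 0.0499), and UHRF1 and a shared H2B probe set without replicate 2 at 4 h (adjusted p = 0.0462 and 0.045). Between 24 h and 4 h, 1 histone gene passed with a pseudocount of 64 (H2BC12, adjusted p = 0.0351, among 251 called). The counts were 0 under the other alternatives run, with 1 array left out in turn included. The medians without 1 array ran from -0.02 to 0.14 at 24 h against untreated cells, from -0.003 to 0.068 at 4 h, and from -0.019 to 0.123 between 24 h and 4 h.

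On the shared H2AC18/H2AC19 probe sets the alternatives were chosen after seeing the data. Their calls at 24 h were kept with a pseudocount of 64 (adjusted p = 0.00353) and also under quantile normalization, median centring and the filter. Over 9 same-numbered pairs of arrays, deviations correlated between -0.0441 and 0.0573, and over different-numbered pairs between -0.0465 and 0.0794. Same-numbered pairs with a 24 h array all lay above 0 (0.0136 to 0.0573), and most different-numbered pairs with one lay below 0. Whether replicate numbers mark a pairing was not tested. With the replicate block the 2 calls were lost (adjusted p = 0.122), the call of GADD45A was lost (adjusted p = 0.0856), and the count of histone genes past the threshold stayed 0.

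Signs turned for H2AC25 with the mean over probe sets (0.038) and for H4C7 under quantile normalization (-0.051). Without 1 array the log2 difference at 24 h ran from -0.078 to 0.378 for H1-4, -0.497 to 0.037 for H1-5, -0.349 to 0.257 for H2AC14, -0.094 to 0.026 for H2AC25, -0.041 to 0.083 for H2AC6, -0.317 to 0.088 for H2BC21, -0.095 to 0.38 for H3-4, -0.169 to 0.141 for H4C7 and -0.148 to 0.087 for CASP8AP2, and that of H2BC12 at 4 h from -0.012 to 0.097. The cause of these changes was not tested.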
